A study of Mus musculus with 4 samples.

Results

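Interferon regulatory factors (IRFs) and signal transducers and activators of transcription (STATs) are the transcription factors that start and carry the interferon response. The 9 genes described here are Irf1, Irf2, Irf3, Irf5, Irf7, Irf8, Irf9, Stat2 and Stat3, taken by gene symbol from a count table of 16846 genes. All 9 had a row, and 8 of them were counted highly enough to be tested, the exception being Irf8. They were measured by RNA sequencing of polyadenylated RNA in HT22, a line of immortalised cells from mouse hippocampus.

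The cells were in 4 groups, each of 2 libraries. They carried a control short hairpin RNA (labelled sh-Ctrl), an shRNA that targets Ntoco, a long noncoding RNA (sh-Ntoco), an empty vector (Vector), or a construct that overexpresses Ntoco (Lv-Ntoco). All groups are cells of this line with an introduced construct, and untreated cells were not analysed here. The labels state neither the time after delivery nor whether the 2 libraries of a group came from separate cultures, so the spread between them may be technical. The sample titles number the cells HT22 to HT25, while the cell line is given as HT22 throughout. In the column names the vector is pcDNA, which denotes a plasmid, so how the vector and overexpression constructs were delivered is uncertain, and the shRNA and vector controls may differ in more than the insert. Total counts ranged from 18452588 to 19859041. Ntoco itself had 0 rows, so its level could not be checked against the group labels.

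Of 12 neuronal markers, 8 had a row, and they summed to between 12.2 and 26.8 CPM (counts scaled to library size). Nearly all of this was Eno2, a neuronal enolase, at 11.4 to 25.8 CPM, while Syp reached 1.03 CPM and Map2 and Tubb3 had at most 1 and 2 counts in any library. Of 5 glutamatergic markers 3 had a row, and nearly all of their sum was Camk2a, at 18.6 to 43.2 CPM. Among markers of microglia and macrophages, which are immune cells with high IRF activity, the 9 with a row summed to between 10.6 and 19.3 CPM. Ptprc and C1qa were at 0 in all libraries. Most of the sum was Cd68 (4.84 to 13.7 CPM), Csf1r (0.642 to 4.4 CPM) and Cx3cr1 (0.681 to 2.96 CPM). The fibroblast and meningeal markers summed to between 1334 and 4849 CPM, lowest in vector library 1 and highest in knockdown library 1. Most of that sum was the collagens Col1a2 (1044 to 3630 CPM) and Col1a1 (209 to 1127 CPM), while Lum was at 0 and Dcn reached 0.0493 CPM. Whether cell composition had a part in the results below was not tested, and in such bulk samples fewer cells of a type and less RNA per cell cannot be told apart.

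In the interferon system, sensors of foreign or misplaced nucleic acid activate IRF3, IRF5 and IRF7, which switch on interferon genes. Secreted interferon binds its receptor, and Janus kinases phosphorylate STAT proteins. STAT2 joins IRF9 and a further STAT in the complex ISGF3, which binds interferon-stimulated response elements. Genes for IRF7, IRF9 and STAT2 are themselves interferon targets, so the response amplifies itself. IRF1 is induced through the GAS element bound by STAT dimers, IRF2 competes with IRF1 for the same sites, IRF8 belongs mainly to immune cells, and STAT3 serves the interleukin-6 family of cytokines.

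The promoters of 4 members are printed. Stat2, Irf1 and Irf2 are those of the tested members with a window that holds such an element. Irf7, the member that varied most between libraries, is shown beside them although its window holds none. Each window runs from 250 bases before to 50 bases after a RefSeq start site (GRCm38.p6), 5′ to 3′ on the gene's strand. Capitals mark the tandem half-site of IRF and ISGF3 elements, GAAA followed after any 2 bases by a second GAAA, on either strand, or TTCNNNGAA, the GAS element, which reads the same on both strands. In the printed windows no match overlaps another. The Stat2 window is chr10:128270248-128270547 (+ strand), the Irf1 window chr11:53769764-53770063 (+ strand), the Irf2 window chr8:46739495-46739794 (+ strand) and the Irf7 window chr7:141266375-141266674 (- strand).
Stat2: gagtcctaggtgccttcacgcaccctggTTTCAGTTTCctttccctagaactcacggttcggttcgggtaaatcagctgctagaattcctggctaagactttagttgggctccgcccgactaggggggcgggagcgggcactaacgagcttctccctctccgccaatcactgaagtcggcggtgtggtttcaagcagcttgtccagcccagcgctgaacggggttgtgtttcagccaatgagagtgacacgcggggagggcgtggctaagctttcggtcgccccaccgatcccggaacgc
Irf1: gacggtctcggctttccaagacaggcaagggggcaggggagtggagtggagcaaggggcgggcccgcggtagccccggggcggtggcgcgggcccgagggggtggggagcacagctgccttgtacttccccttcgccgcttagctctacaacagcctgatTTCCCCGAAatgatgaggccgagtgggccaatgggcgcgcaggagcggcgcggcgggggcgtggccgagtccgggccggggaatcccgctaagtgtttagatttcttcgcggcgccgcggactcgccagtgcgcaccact
Irf2: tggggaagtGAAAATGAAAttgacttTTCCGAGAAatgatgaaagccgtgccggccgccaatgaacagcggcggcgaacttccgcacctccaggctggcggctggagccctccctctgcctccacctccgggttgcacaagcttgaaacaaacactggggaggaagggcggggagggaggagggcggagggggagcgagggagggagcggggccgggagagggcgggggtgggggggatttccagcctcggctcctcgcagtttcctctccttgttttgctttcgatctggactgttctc
Irf7: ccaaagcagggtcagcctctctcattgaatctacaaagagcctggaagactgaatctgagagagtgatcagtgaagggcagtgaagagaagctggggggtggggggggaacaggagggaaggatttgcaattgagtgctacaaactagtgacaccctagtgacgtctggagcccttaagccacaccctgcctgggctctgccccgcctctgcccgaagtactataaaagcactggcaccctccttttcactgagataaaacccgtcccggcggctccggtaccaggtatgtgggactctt

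Stat2 held 1 match to the tandem half-site, TTTCAGTTTC as read on the gene's strand, 222 to 213 bases before the start site. Irf1 held 1 match to TTCNNNGAA in the printed window, TTCCCCGAA, 90 to 82 bases before the start site. A further Irf1 window, from 53770223 to 53770522, held 0 matches. Irf2 held 1 of each, GAAAATGAAA at 241 to 232 bases and TTCCGAGAA at 224 to 216 bases before its start site. Irf7 held neither string in this window, and neither did the windows of Irf3, Irf5, Irf9 and Stat3. Irf8 held 2 matches to TTCNNNGAA in one window and 0 in a further window. Over 32851 promoter windows of 300 bases, 3.44% held the tandem half-site and 8.3% held TTCNNNGAA, and a match describes letters only.

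Levels are given as CPM, counts scaled by library size and by edgeR's TMM factors. Irf7, Irf9, Stat2 and Irf1 were high in both vector libraries and in overexpression library 2. Irf7, Irf9 and Stat2 were far lower in overexpression library 1 and in all 4 shRNA libraries. Irf3 and Stat3 stayed within narrower ranges. The 2 overexpression libraries therefore stand apart from each other for the interferon-linked members, and the overexpression ratios of the members are also given without each of them. With no row for Ntoco, it could not be checked whether either of these columns is mislabelled, and every overexpression ratio rests on the labels as given.

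**Figure D1:**
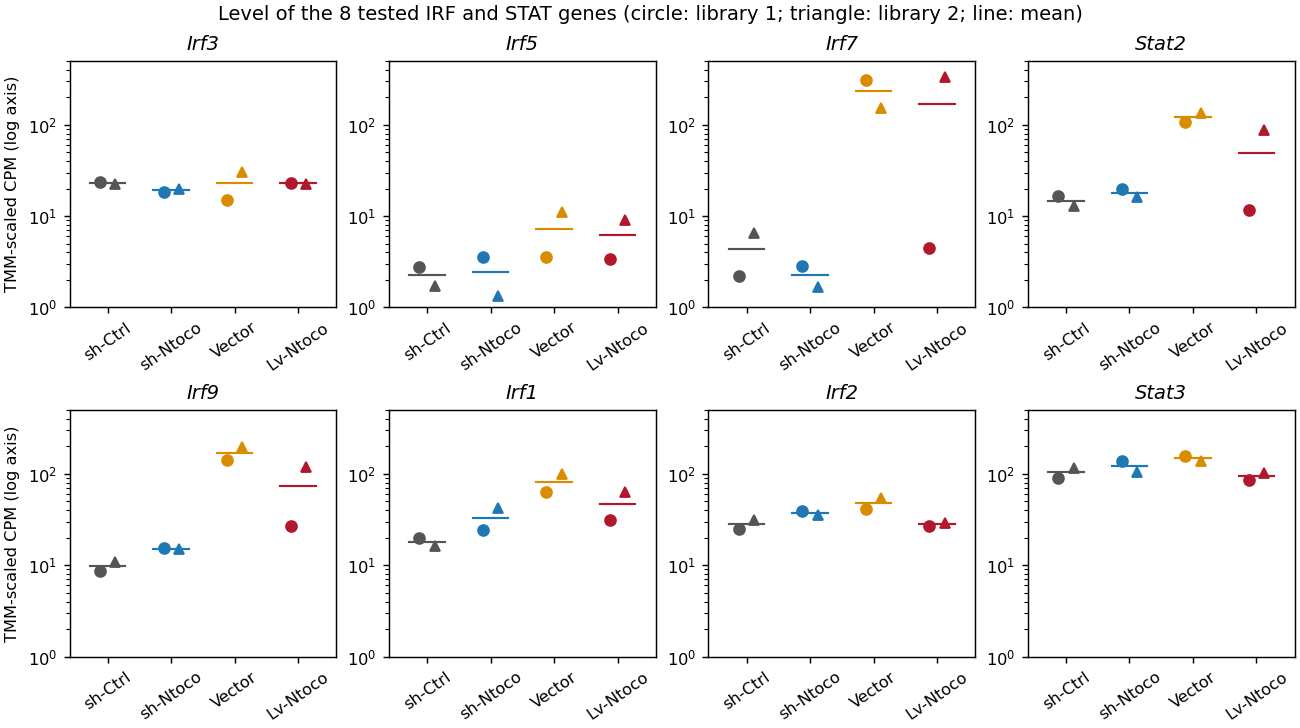
CPM (log axis) of the 8 tested genes in each group, with a circle for library 1, a triangle for library 2 and a line at the mean. Irf7 lies at 154 to 331 CPM in both vector libraries and overexpression library 2 and at 1.68 to 6.49 CPM in the other 5 libraries, while Irf3 lies at 15.1 to 30.5 CPM in all 8.

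Of the factors that act below nucleic acid sensors, Irf3 is made without stimulation and is activated by phosphorylation (Entrez Gene 54131, GRCm38 chromosome 7, 44997648 to 45002848). Irf3 stood at 23.6 and 22.4 CPM with the control shRNA, 18.6 and 19.7 CPM with the Ntoco shRNA, 15.1 and 30.5 CPM with the empty vector and 23.1 and 22.8 CPM with the Ntoco construct. The vector libraries spanned the values of all the others, and only the knockdown libraries lay to one side of their control.

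Irf7, the inducible factor that drives the late wave of interferon-alpha genes (Entrez Gene 54123, chromosome 7, 141263183 to 141266499), spanned the widest range of the members. Its levels were 2.2 and 6.49 CPM with the control shRNA, 2.82 and 1.68 CPM with the Ntoco shRNA, 314 and 154 CPM with the empty vector and 4.48 and 331 CPM with the Ntoco construct. Overexpression library 1 thus lay among the shRNA libraries, and library 2 above both vector libraries. The underlying counts were 87 in overexpression library 1 and 5992 in library 2.

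Irf5, a factor of Toll-like receptor signalling that is best known in immune cells (Entrez Gene 27056, chromosome 6, 29526130 to 29541869), was low throughout. Its values were 2.78 and 1.71 CPM with the control shRNA, 3.61 and 1.33 CPM with the Ntoco shRNA, 3.58 and 11.02 CPM with the empty vector and 3.4 and 9.05 CPM with the Ntoco construct. Vector library 2 and overexpression library 2 had the highest values. In RefSeq, Irf5 overlaps Tnpo3, Stat2 overlaps Apof, Stat3 overlaps Gm46295 and Irf2 overlaps Gm31172 and Gm39170. The sources used here do not say whether counting used strand, so reads of such partners may be mixed. Irf8 had 0 to 4 counts in each library (Entrez Gene 15900, chromosome 8, 120736358 to 120756694), too few for a comparison.

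Stat2 and Irf9 each encode a subunit of ISGF3, which also holds a further STAT. Stat2 (Entrez Gene 20847, chromosome 10, 128270498 to 128292853), whose promoter match is shown above, measured 16.7 and 12.8 CPM with the control shRNA, 19.8 and 16.2 CPM with the Ntoco shRNA, 108 and 136 CPM with the empty vector and 11.7 and 87.6 CPM with the Ntoco construct. Overexpression library 1 had the lowest Stat2 level of all 8 libraries.

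Irf9, the DNA-binding subunit (Entrez Gene 16391, chromosome 14, 55603985 to 55610030), reached 8.75 and 10.8 CPM with the control shRNA, 15.4 and 15.04 CPM with the Ntoco shRNA, 143 and 198 CPM with the empty vector and 27.1 and 119 CPM with the Ntoco construct. Unlike Stat2, Irf9 in overexpression library 1 lay above all 4 shRNA libraries, though below the vector libraries.

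Irf1, an activator of antigen presentation genes (Entrez Gene 16362, chromosome 11, 53770014 to 53778374), came to 20.1 and 16.1 CPM with the control shRNA, 24.3 and 41.9 CPM with the Ntoco shRNA, 63.9 and 101 CPM with the empty vector and 31.2 and 62.8 CPM with the Ntoco construct. Knockdown library 2 exceeded overexpression library 1, so the low and high libraries of Irf1 were graded rather than set apart as for Irf7. Irf2, its antagonist (Entrez Gene 16363, chromosome 8, 46739745 to 46847458), lay at 24.9 and 31.1 CPM with the control shRNA, 39 and 35.9 CPM with the Ntoco shRNA, 41.5 and 54.7 CPM with the empty vector and 26.9 and 29.2 CPM with the Ntoco construct. For Irf2 both overexpression libraries were low, within the range of the shRNA control.

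Stat3 (Entrez Gene 20848, chromosome 11, 100886806 to 100939594), the acute-phase and survival factor among the members, was counted at 91.2 and 117 CPM with the control shRNA, 138 and 105 CPM with the Ntoco shRNA, 158 and 139 CPM with the empty vector and 86.8 and 104 CPM with the Ntoco construct. Both overexpression libraries lay below both vector libraries, and the knockdown overlapped its control.

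Levels of different genes can be compared only per gene length, for which the deposited FPKM values (fragments scaled to gene length in kilobases and to sequencing depth) were used. By the mean FPKM over 8 libraries the order was Irf7 (53.4), Stat3 (25.7), Irf9 (24.5), Irf3 (13.7), Irf1 (13.3), Stat2 (11.2), Irf2 (3.11), Irf5 (1.41) and Irf8 (0.023). The ranges over libraries of all neighbours in this order overlapped, except those of Irf5 and Irf8. Irf7 ranked first of the 9 in both vector libraries and in overexpression library 2, and at places 5 to 7 in the other 5. Stat3 ranked first in those 5.

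**Figure D2:**
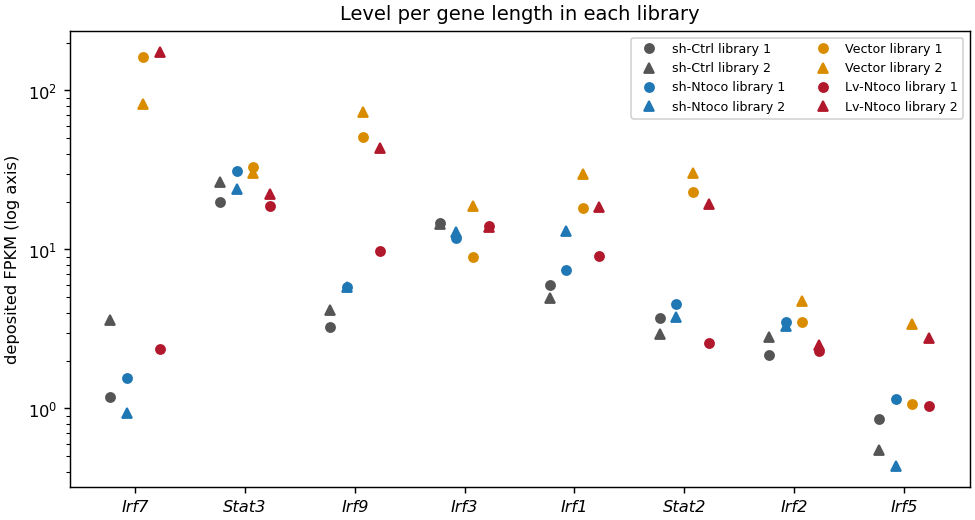
Deposited FPKM (log axis) of the 8 tested genes in each library, ordered by mean FPKM from left to right, with colours for groups and circles and triangles for libraries 1 and 2. Irf7 spans 0.943 to 175 FPKM, while Stat3 spans 18.7 to 33.2 FPKM.

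The empty vector was set against the control shRNA to see how far the 2 control groups differ. Both vector libraries lay above both shRNA control libraries for 7 of the 8 tested members and below them for 0, and Irf3 overlapped. Among all 12115 tested genes 24.6% had both vector libraries higher and 26.5% both lower. Log2 ratios from edgeR were 5.75 (SE 1.65) for Irf7, 4.12 (SE 0.64) for Irf9, 3.05 (SE 0.77) for Stat2, 2.18 (SE 0.43) for Irf1 and 1.70 (SE 0.75) for Irf5. They were 0.78 (SE 0.23) for Irf2, 0.51 (SE 0.22) for Stat3 and -0.0094 (SE 0.32) for Irf3. For Irf5 the ratio dropped to 0.67 when vector library 2 was left out, and leaving out vector library 1 gave 2.29. That of Irf7 ranged from 5.14 without vector library 1 to 6.72 without shRNA control library 2. The group mean of Irf7 was 234 ± 113 CPM for the empty vector against 4.34 ± 3.03 CPM for the control shRNA (SD, n = 2), a ratio of 53.9.

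With edgeR's quasi-likelihood test, which takes its estimate of spread from all 4 groups, 0 of the 8 members passed an adjusted p of 0.05 in this comparison. The adjusted p was 0.337 for Irf9, Irf1 and Stat2 and 0.345 for Irf7 and Irf2. The background was 0% of all genes called, with 1520 genes at an unadjusted p under 0.05. Of the members, 5 were at that unadjusted level, Irf1, Irf2, Irf7, Irf9 and Stat2, all higher, against 6.45% of all genes higher and 6.1% lower. DESeq2's Wald test called Irf9 (adjusted p 6.31e-11), Irf1 (0.000135), Stat2 (0.000552) and Irf7 (0.0256) higher in the vector, 4 of the members, against 2.26% of genes. With no filter on low counts edgeR called Irf9 alone among the members, against 0.0181% of genes. Leaving out either overexpression library, whose difference enters the shared spread, let edgeR call Irf7, Irf9 and Stat2. The adjusted p for Irf9 was then 0.00149 without library 1 and 0.00189 without library 2, and the share of all genes called 0.781% and 0.773%. With only the 2 control groups in the edgeR fit, Irf1, Irf7, Irf9 and Stat2 were called, against 1.08% of genes.

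**Figure D3:**
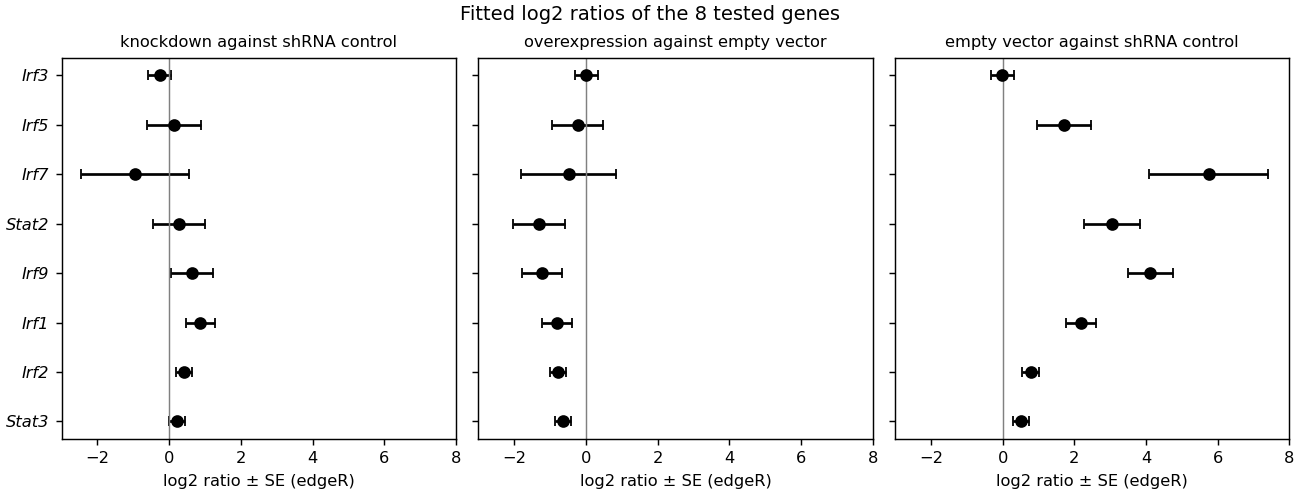
Log2 ratios with SE from the edgeR fit for the 8 tested genes in the 3 comparisons of groups. The vector comparison holds the largest ratio, 5.75 for Irf7, and in the knockdown and overexpression comparisons every ratio lies between -1.30 and 0.87.

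The overexpression group was set against the empty vector to ask which genes differ when Ntoco is overexpressed. Both overexpression libraries lay below both vector libraries for Irf1, Irf2, Irf9, Stat2 and Stat3, that is 5 of 8, where 23.1% of all tested genes did so. None of the 8 lay above, where 24.1% of all genes did. Log2 ratios were -1.30 (SE 0.72) for Stat2, -1.22 (SE 0.57) for Irf9, -0.81 (SE 0.41) for Irf1, -0.78 (SE 0.23) for Irf2 and -0.64 (SE 0.23) for Stat3. They were -0.48 (SE 1.33) for Irf7, -0.23 (SE 0.72) for Irf5 and 0.0053 (SE 0.32) for Irf3. The edgeR adjusted p lay between 0.598 and 0.994, so 0 of 8 members passed, against 0% of all genes. The unadjusted p was under 0.05 for 923 genes, 3.53% of those tested being higher and 4.09% lower, and for 2 members, Irf2 and Stat3, both lower. DESeq2 called 0 members and 0.00602% of genes.

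These ratios depended on which overexpression library was used. Without overexpression library 1, the log2 ratio of Irf7 was 0.50, that of Stat2 -0.48 and that of Irf9 -0.51, and edgeR called 0 members. In the edgeR fit without overexpression library 2, the ratio of Irf7 was -5.70 (adjusted p 0.0747), that of Stat2 -3.37 (adjusted p 0.0337) and that of Irf9 -2.65 (adjusted p 0.0442). Stat2 and Irf9 were then called lower, against 0.201% of genes. Irf1 had -0.39 without library 1 and -1.40 without library 2. Of the 5 members below both vector libraries, Irf2 and Stat3 moved least, with -0.72 and -0.52 without library 1 and -0.83 and -0.77 without library 2. Irf5 had 0.31 and -1.10. The vector libraries also bore on the sign, which for Irf7 was positive without vector library 1 (0.12) and for Irf5 without vector library 2 (0.80). Between the overexpression libraries, Irf7 was 73.8-fold, Stat2 7.45-fold and Irf9 4.4-fold higher in library 2. These 3 of 8 members exceeded a 4-fold difference, as did 1.53% of all tested genes in that direction, and 0 members did so between the libraries of any other group.

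**Figure D4:**
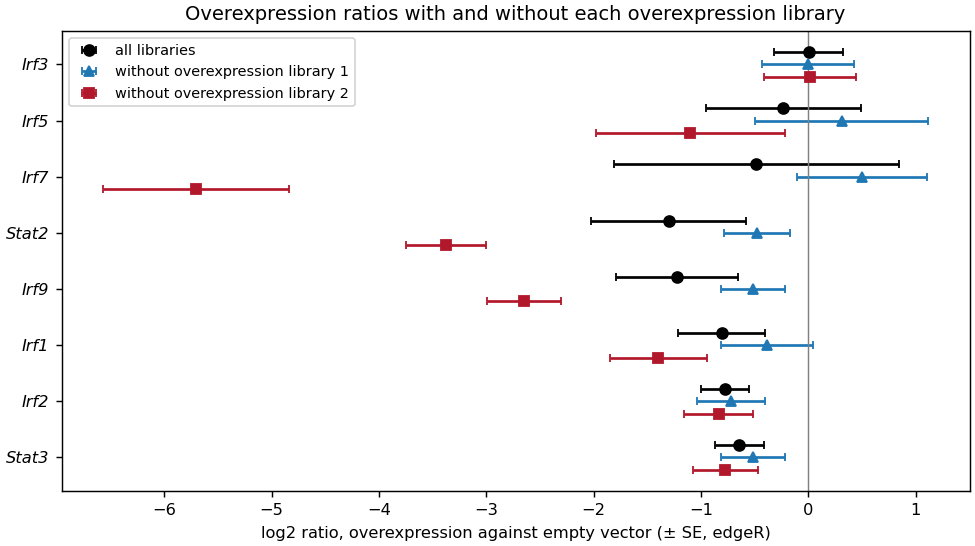
Log2 ratio of overexpression against vector with SE (edgeR) for the 8 tested genes, with all libraries (black circles), without overexpression library 1 (blue triangles) and without library 2 (red squares). Irf7 moves from 0.50 to -5.70 between the last 2, while Irf2 stays between -0.72 and -0.83.

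The knockdown was set against the control shRNA to ask which genes differ when Ntoco is targeted. Both knockdown libraries lay above both controls for Irf1, Irf2 and Irf9 and below them for Irf3. This is 3 higher and 1 lower of 8, where 15.1% and 14.1% of all tested genes were so placed. Log2 ratios were 0.87 (SE 0.41) for Irf1, 0.64 (SE 0.58) for Irf9, 0.42 (SE 0.23) for Irf2, 0.29 (SE 0.73) for Stat2 and 0.22 (SE 0.22) for Stat3. They were 0.14 (SE 0.75) for Irf5, -0.26 (SE 0.32) for Irf3 and -0.95 (SE 1.52) for Irf7. None passed the edgeR test, with adjusted p from 0.992 to 0.998, against 0% of all genes called. The unadjusted p was under 0.05 for 378 genes, 1.51% of those tested being higher and 1.61% lower, and for 0 members, and DESeq2 called 0 members against 0.0903% of genes. Without shRNA control library 2 the ratio was 0.026 for Irf7 and -0.17 for Irf5, and without knockdown library 1 it was -0.76 for Irf5, each opposite in sign to the ratio over all libraries.

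Whether overexpression and knockdown acted differently on a member was tested as an interaction in the same fit. The difference, overexpression minus knockdown, was -1.86 (SE 0.81) for Irf9, -1.68 (SE 0.58) for Irf1, -1.59 (SE 1.02) for Stat2, -1.20 (SE 0.32) for Irf2 and -0.86 (SE 0.32) for Stat3 on the log2 scale. Irf7 had 0.47 (SE 2.004), Irf3 0.27 (SE 0.45) and Irf5 -0.37 (SE 1.04). These differences also depended on the overexpression library. Without library 1, that of Stat2 was -0.77, that of Irf9 -1.15, that of Irf1 -1.26, that of Irf7 1.45 and that of Irf5 0.17. Without library 2 they were -3.66 for Stat2, -3.29 for Irf9, -2.27 for Irf1, -4.75 for Irf7 and -1.23 for Irf5, with edgeR adjusted p of 0.0661 for Stat2 and 0.0729 for Irf9. Irf2 had -1.14 and -1.25 and Stat3 -0.74 and -0.99. With all libraries the edgeR adjusted p lay between 0.65 and 0.947, so 0 members passed, against 0% of all genes, with 838 genes at an unadjusted p under 0.05. At that level 3 members, Irf1, Irf2 and Stat3, were lower, against 3.35% of genes lower and 3.57% higher. DESeq2 called 0 members and 0.0875% of genes. The vector comparison shares its libraries with the other 2 comparisons, so their values are not independent.

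Interferons are the ligands that act upstream of STAT2 and IRF9. The interferon-beta gene Ifnb1 had 0 and 2 counts with the control shRNA, 0 and 0 with the Ntoco shRNA, 3 and 29 with the empty vector and 0 and 44 with the Ntoco construct. Ifna4, a gene of interferon-alpha, had 0 and 1, 0 and 0, 4 and 34, and 0 and 14 counts in the same order. Ifng, which encodes interferon-gamma, had 1 count in all 8 libraries together. These genes were singled out after their values were seen, and the counts of Ifnb1 and Ifna4 above 2 were all in the 3 libraries with high Irf7.

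Interferon, receptor and Janus kinase genes had a small median log2 ratio in the vector comparison, but a wide range. Of 17 such genes, 11 were tested, with a median of 0.13 and ratios from -0.83 to 4.93. Of these, 4 lay higher and 1 lower in both vector libraries, against 24.6% and 26.5% of all tested genes. The kinase gene Jak3 had the lowest ratio, -0.83 (SE 0.30), and Il10rb had 0.57 (SE 0.28). The receptor chains Ifnar1 and Ifnar2 had vector ratios of 0.13 (SE 0.19) and 0.29 (SE 0.21), and overexpression ratios of -0.23 (SE 0.19) and -0.10 (SE 0.21). Of 22 tested sensors, adaptors and kinases upstream of IRF3, IRF5 and IRF7, 9 lay higher and 5 lower in both vector libraries, with a median of 0.04, where 24.6% and 26.5% of all tested genes were so placed. At an unadjusted p under 0.05, 7 of the 22 were higher, against 6.45% of all genes. The highest ratio in the list was 5.01. Of the 22, edgeR called 0 and DESeq2 2, against 0% and 2.26% of genes. Ddx58 and Ifih1 are in this list and also among the type I interferon targets described below. The adaptor Myd88 had 0.79 (SE 0.23) and the mitochondrial adaptor Mavs -0.51 (SE 0.22).

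The medians of the type I interferon targets and of the interferon-gamma and IRF1 targets followed the high and low libraries of Irf7. Of 38 tested type I interferon targets, 36 lay higher and 1 lower in both vector libraries than in both shRNA controls, against 24.6% and 26.5% of all tested genes. Their median log2 ratio was 4.27 against -0.0029 for all tested genes. By library, their median difference from the shRNA control mean was 4.18 and 4.51 in the vector and 0.61 and 4.41 in the overexpression libraries. It was 0.42 and -0.08 in the knockdown libraries. In the overexpression comparison 0 lay higher, where 24.1% of all tested genes did. In it 10 lay lower, 26.3% against 23.1% of all tested genes, a share near that of all genes. The median there was -0.81, and it was -0.03 without overexpression library 1 and -3.93 without library 2. Ifi27, an interferon-induced mitochondrial protein, was at 294 and 226 CPM with the empty vector against 88.3 and 135 CPM with the Ntoco construct, so both overexpression libraries were lower. The ubiquitin ligase Trim25 was at 291 and 394 CPM against 75.2 and 225 CPM. None of the 38 passed edgeR's test in any comparison. At an unadjusted p under 0.05 there were 36 higher for the vector, 2 lower for overexpression and 1 higher for the knockdown. The shares of all genes there were 6.45%, 4.09% and 1.51%. DESeq2 called 32, 0 and 0 of the 38, against 2.26%, 0.00602% and 0.0903% of genes.

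Of 30 tested targets of interferon-gamma and IRF1, 27 lay higher and 1 lower in both vector libraries, with a median of 1.93. Of all tested genes 24.6% and 26.5% were so placed. In the knockdown, 17 lay higher and 1 lower than both controls, against 15.1% and 14.1% of all genes, with a median of 0.67. None passed edgeR's test, 5 were higher at an unadjusted p under 0.05, against 1.51% of all genes, and DESeq2 called 0. For the vector those counts were 0, 23 and 19, where 6.45% of all genes were higher at that unadjusted level and DESeq2 called 2.26%. For overexpression 1 of the 30 lay higher and 5 lower than both vector libraries, against 24.1% and 23.1% of all genes. The median there was -0.72, and it was -0.05 without overexpression library 1 and -1.64 without library 2. The immunoproteasome subunits Psmb9 and Psmb8 had knockdown ratios of 1.504 (SE 0.51) and 1.34 (SE 0.51), and the peptide transporter Tap1 one of 1.08 (SE 0.43). Psmb8 counted 47.7 and 50.7 CPM with the control shRNA against 145 and 105 CPM with the Ntoco shRNA, so the groups did not overlap.

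**Figure D5:**
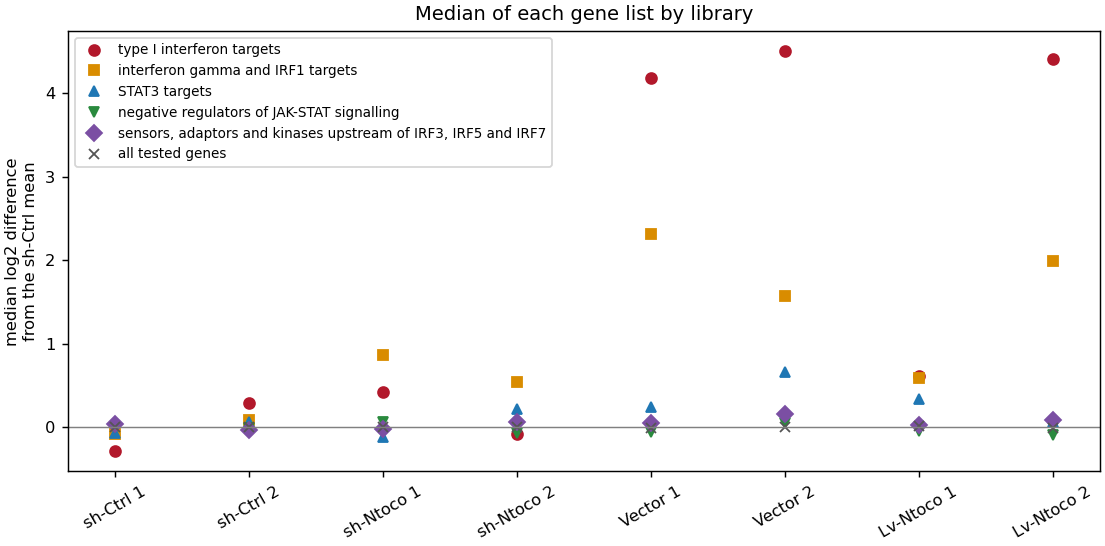
Median log2 difference from the shRNA control mean for 5 gene lists and for all tested genes in each of the 8 libraries. Type I interferon targets lie at 4.18 to 4.51 in both vector libraries and overexpression library 2 and at 0.61 or less in the others, while all tested genes lie near 0.

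In the vector comparison, STAT3 targets had a smaller median log2 ratio than the interferon targets, though single genes ranged from -2.41 to 3.21. Of 24 tested STAT3 targets, 12 lay higher and 0 lower in both vector libraries, with a median of 0.49, against 24.6% and 26.5% of all tested genes. In the overexpression comparison 2 lay higher and 8 lower, against 24.1% and 23.1%, with a median of -0.23 that was -0.45 without overexpression library 1 and -0.14 without library 2. The transcription factor Cebpb stood at 51.9 and 67.3 CPM with the control shRNA, 119 and 118 CPM with the empty vector and 74.1 and 62.3 CPM with the Ntoco construct. As with Stat3 itself, both overexpression libraries lay below both vector libraries. In the knockdown, 5 of the 24 STAT3 targets lay higher and 2 lower, against 15.1% and 14.1% of all genes, with a median of 0.05. At an unadjusted p under 0.05 (edgeR), 3 were higher and 2 lower, against 1.51% and 1.61%. Lcn2 was at 15 and 16.8 CPM with the control shRNA and 14.3 and 907 CPM with the Ntoco shRNA. Its knockdown ratio of 4.86 (SE 1.54) thus rested on knockdown library 2. Cebpd had one of 1.46 (SE 0.49) and Ccnd1 one of -0.83 (SE 0.33). Of 13 tested cytokines and receptors of the gp130 family, which signal to STAT3, 9 lay higher and 0 lower in both vector libraries, against the same 24.6% and 26.5%. For overexpression 0 of the 13 lay higher and 7 lower, against 24.1% and 23.1%. The median there was -0.38, and it was -0.46 without overexpression library 1 and -0.17 without library 2. For the knockdown 4 lay higher and 0 lower, against 15.1% and 14.1%. The shared receptor Il6st had a vector ratio of 0.48 (SE 0.19) and the oncostatin receptor Osmr one of 0.80 (SE 0.26). None of these genes passed edgeR's test. In the vector comparison 6 STAT3 targets and 4 genes of the gp130 family were higher at an unadjusted p under 0.05, against 6.45% of all genes. DESeq2 called 1 of each, against 2.26% of genes. Il6st and Osmr are in both lists and both were higher at that unadjusted level, so the counts of the lists overlap.

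Inhibitors of the pathway did not share one direction. Of 16 tested negative regulators, 3 lay higher and 5 lower in both vector libraries, with a median of 0.02, and these shares of 18.8% and 31.2% lie near the 24.6% and 26.5% of all tested genes. In the overexpression comparison 3 lay higher and 7 lower, against 24.1% and 23.1% of all genes. In the knockdown 4 lay higher and 2 lower, against 15.1% and 14.1%. Socs2 stood at 0.471 and 3.43 CPM with the control shRNA and 9.05 and 10.1 CPM with the Ntoco shRNA, a log2 ratio of 2.29 (SE 0.85). Cish, an inhibitor of STAT5 signalling, had one of 1.68 (SE 0.48). Socs1, which blocks Janus kinases, had a vector ratio of 1.07 (SE 0.47). None of the 16 passed edgeR's test. In the knockdown 2 were higher at an unadjusted p under 0.05, against 1.51% of all genes, and DESeq2 called 0.

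Of 14 tested further IRF, STAT and partner genes, 7 lay higher and 4 lower in both vector libraries, against 24.6% and 26.5% of all tested genes. In the overexpression comparison 1 lay higher and 5 lower, against 24.1% and 23.1%. The acetyltransferases Ep300 and Crebbp, coactivators for IRF and STAT proteins, had overexpression ratios of -0.997 (SE 0.25) and -1.09 (SE 0.38), with an edgeR adjusted p of 0.598 for both. Without overexpression library 1 these ratios were -0.73 and -0.69, and without library 2 they were -1.32 and -1.65. Nmi, which binds STAT proteins, had a vector ratio of 2.09 (SE 0.55). None of the 14 passed edgeR's test. In the vector comparison 2 were higher and 1 lower at an unadjusted p under 0.05, against 6.45% and 6.1% of all genes. DESeq2 called 2 higher there, against 2.26% of genes called.

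The genes nearest to each member were those with the smallest root mean square difference of log2 CPM over the 8 libraries, each gene centred on its own mean. For Irf7 they were Isg15, Gbp3 and Ifi44, at 0.33, 0.33 and 0.38, where Irf7 itself varied by 3.10 about its mean. Isg15, a ubiquitin-like interferon target, was at 228 and 188 CPM with the empty vector and at 5.1 and 261 CPM with the Ntoco construct. For Irf9 they were Trim34b, Trim21 and Trim34a, at 0.33 to 0.37. Trim34b and Trim34a are close copies between which reads can be split. For Stat2, Tmem140 (0.19) and Dtx3l (0.28) were nearest, and for Irf1, Cd34 (0.32), Cd274 (0.33) and Mitd1 (0.34). Cd34 was low, at 0.571 to 4.53 CPM. Irf5 lay nearest to Slfn8, Slfn9 and Tlr3.

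The flatter members had other neighbours. Irf2 lay nearest to Maml2 (0.12), Irf3 to Gtf3a (0.11) and Stat3 to Tm6sf1 (0.11). Tm6sf1 was low, at 0.876 to 1.62 CPM. Among pairs of members, Irf2 and Stat3 were closest, at 0.19, and Irf9 and Stat2 lay 0.62 apart. A small difference is easier to reach for a gene that varies little, since Irf2 and Stat3 varied by 0.35 and 0.29 about their own means.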

How the data were processed

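Per-gene whole-number counts, not normalized, and FPKM values were both deposited by the authors. Each FPKM equalled the count over a fixed gene length and the library total within 1%, for all 12615 genes with reads in every library. Tools named in the submitters' processing notes are HISAT2, Trimmomatic, HTSeq, Cufflinks and DESeq, with the build mm10, and their versions, roles, annotation and strand setting were not found in the labels or headers. The 8 columns were assigned to the 4 samples by the role in their names. No column name holds Ntoco. The knockdown and overexpression columns name their target AK, which the labels do not explain, so that AK stands for Ntoco was inferred. The 2 columns of a sample were used as separate libraries because their counts differed by a chi-square of 62.1 to 156 per gene, where 1 is counting noise.

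Genes were filtered with filterByExpr (minimum count 10), scaled with TMM factors and tested with edgeR 4.0.16 in R 4.3.3 (quasi-likelihood test, all 4 groups in one model, 4 residual and 3.85 prior degrees of freedom). Benjamini-Hochberg adjustment ran over 12115 genes, with a threshold of 0.05. DESeq2 1.42.0 was an alternative. On simulated counts for overexpression against vector with 200 changed genes, of 11994 tested, edgeR recovered 69 of 100 changed by 2 and 9 of 100 changed by 1 (log2), with 5 false calls. CPM uses TMM-scaled sizes, and per-library log2 CPM a prior count of 2. Coordinates and promoters are RefSeq's for GRCm38.p6, the assembly that mm10 denotes, and all 9 genes matched. The members and gene lists were chosen with earlier results of these data known. All 9 members were named, as were, from each list, at most the 3 genes with the smallest p in the overexpression and in the knockdown comparison, any gene called, and up to 3 nearest genes of each member. Genes named outside that rule were chosen after their values were seen.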

Additional observations from a re-analysis of the deposited data

How the results depend on the processing

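Counts of called genes changed with the tool and the samples in the fit. DESeq2 called 15 genes in the knockdown, 1 in the overexpression, 281 in the vector comparison and 12 for the difference of effects, against 0 with edgeR. In the vector comparison edgeR called 1 member and 3 genes with no filter on low counts, and 4 members and 128 genes with only the 2 compared groups, where it called 1 gene for overexpression. DESeq2 called 4 members there. Leaving out 1 library at a time, members called ranged from 0 to 2 for overexpression and from 0 to 3 for the vector. Genes called ranged from 0 to 1 for the knockdown, 0 to 25 for overexpression, 0 to 97 for the vector and 0 to 1 for the difference.

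The overexpression ratio of Irf3, 0.0053, became -4.8e-05 with RLE size factors, -0.0057 with a minimum of 1 CPM in 2 libraries and -0.0074 with only the 2 groups, and its vector ratio became 0.0014 with RLE. With 1 library left out, Irf3 ranged from -0.41 to 0.60 for overexpression, from -0.60 to 0.41 for the vector and from -0.15 to 0.87 for the difference. Irf5 ranged from -0.76 to 0.68 in the knockdown, from -1.10 to 0.80 for overexpression and from -1.23 to 0.66 for the difference. Irf7 ranged from -1.53 to 0.026, from -5.70 to 0.50 and from -4.75 to 1.45 in the same order. With the column number as a replicate block, edgeR called 0 genes in each comparison, and the difference for Irf7 became -0.63. The numbers were not taken as pairs in the main fit, and the labels do not say whether they are. Deviations of same-numbered libraries correlated at 0.36 between the knockdown and its control and at -0.22 between overexpression and its vector. Over all pairs of groups the correlations ran from -0.36 to 0.36. The cause of these changes was not tested. For single members, 170 of the alternatives that kept all libraries had the same sign and call, 9 gained a call and 5 reversed sign. Of those that left 1 library out, 229 had the same sign and call, 8 gained a call and 19 reversed sign. Since edgeR called 0 members in the main fit, an unchanged call says little about stability. A ratio counted as the same could also change much in size, as that of Irf7 did, from -0.48 to -5.70 for overexpression.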
